A study of Mus musculus with 12 samples.

Results

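The miRNAs described here come from the stretch of chromosome 12 where a non-coding transcript runs antisense to the gene Rtl1. Of the 1929 miRNA rows in the deposited table, 9 were chosen by name. Of these, 8 are processed from hairpins of the antisense transcript (mmu-miR-431-5p, mmu-miR-433-3p, mmu-miR-127-3p, mmu-miR-127-5p, mmu-miR-434-3p, mmu-miR-434-5p, mmu-miR-136-3p and mmu-miR-136-5p, with the species prefix left out below). The other, mmu-miR-3071-3p, is annotated on the opposite strand, across from miR-136. Small RNA was sequenced in 12 liver samples of C57BL/6 mice with hepatic fibrosis induced by carbon tetrachloride (CCl4), a hepatotoxin injected into the peritoneum and the samples are numbered 1 to 6 in each group. The water group of 6 received double distilled water by the intragastric route every day, and the PZH group of 6 received Pien Tze Huang (PZH), a traditional Chinese medicine. Both groups carried the CCl4 injury, so no level below is that of a healthy liver, and the labels state no age, sex or dose.

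Rtl1 is a retrotransposon-derived gene of the imprinted Dlk1-Dio3 domain, expressed from the paternal chromosome and known for its role in the placenta. The antisense transcript is expressed from the maternal chromosome, together with the long non-coding RNAs Meg3, Rian and Mirg. Because its miRNAs are transcribed across the Rtl1 gene, they match the Rtl1 message in full and can direct its cleavage, in addition to the seed pairing by which most miRNAs act. The domain's miRNAs are abundant in embryo, placenta and brain and low in adult liver.

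The mature sequences are shown because the pattern across arms, and the relation of miR-136 to miR-3071, depend on them. They are the RefSeq sequences on build GRCm38.p6, written 5′ to 3′, with the seed (bases 2 to 8) in capitals.
miR-431-5p: uGUCUUGCaggccgucaugca
miR-433-3p: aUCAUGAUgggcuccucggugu
miR-127-5p: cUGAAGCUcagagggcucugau
miR-127-3p: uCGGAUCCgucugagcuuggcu
miR-434-5p: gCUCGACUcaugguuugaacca
miR-434-3p: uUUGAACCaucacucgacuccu
miR-136-5p: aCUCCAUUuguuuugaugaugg
miR-136-3p: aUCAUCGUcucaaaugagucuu
miR-3071-3p: aUCAUCAAaacaaauggagucc

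The 9 members have 9 different seeds, and none shares its seed with another mouse miRNA in the RefSeq table. They are therefore grouped below by hairpin. The 7 hairpins of the stretch, with miR-432 included, lie within 5.0 kb on chromosome 12, between 109590447 and 109595397 on GRCm38. All 7 fall inside coding exon sequence of Rtl1, which is annotated from 109589193 to 109600330 on the minus strand. From the Dlk1 side the order is miR-431, miR-433, miR-127, miR-434, miR-432 and miR-136, all on the plus strand, with miR-3071 on the minus strand over miR-136. Each of the 8 plus-strand members has 1 perfectly complementary site in the Rtl1 transcript of GENCODE M21. The 2 arms of miR-434 share a run of 9 bases with each other, and the longest run that any member shares with another mouse miRNA in the same sense is 11 bases. By contrast, miR-136-5p and miR-3071-3p are complementary over a run of 20 bases and cover 20 shared positions. No source used here says whether the counting was by strand, so reads of these last 2 cannot be told apart with certainty.

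Total counts per library ranged from 4961913 to 20211784 with water and from 6065480 to 10436478 with PZH. The hepatocyte miRNA miR-122-5p held 9.03% to 12.7% of the scaled counts of a library, so the samples carry the liver's defining miRNA. Levels are given as CPM, the count of a miRNA relative to the size of its library, after TMM scaling, which corrects for differences in composition between libraries. Of 607 miRNAs that passed the filter on low counts, edgeR's quasi-likelihood test called 9.88% higher and 11.4% lower with PZH at a Benjamini-Hochberg adjusted p under 0.05. Every PZH library lay above every water library for 5.11% of the 607.

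With PZH, 4 of the 9 members rose, namely miR-431-5p, miR-127-3p, miR-127-5p and miR-434-5p, by 2.15-fold to 3.68-fold. None fell by edgeR, DESeq2 or limma-voom (0 at an unadjusted edgeR p under 0.05). A further 4 were tested and not called, with estimates from 1.23-fold to 2.04-fold, and miR-433-3p did not reach the filter. The median log2 fold change of the 8 tested members was 1.07, against -0.03 over all 607 tested miRNAs. This contrast is description only, because the members were chosen with earlier results of these data known. The filter bears on the count of members called and on this median. The level of miR-431-5p reached the filter level of 1.10 CPM in all 6 PZH libraries but in 3 water libraries. It thus entered the test through the group where it was higher.

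The summed level of the 9 members had a lowest, median and highest value of 102, 130 and 192 CPM with water and 185, 238 and 396 CPM with PZH. The ranges overlap narrowly, through water replicate 2 at 192 CPM and PZH replicate 4 at 185 CPM. The PZH group was uneven, with replicates 5 and 6 at 390 and 396 CPM and the other 4 libraries at 185 to 239 CPM. Water replicate 2, which also had the largest total count, was the highest water library for 7 of the 9 members. PZH replicate 5 was the highest PZH library for 6 members and PZH replicate 6 for the other 3, while PZH replicate 4 was the lowest for 6. With PZH replicates 5 and 6 both left out, a choice made after the values were seen, 3 members were called. In a bulk liver sample, more cells of a type and more RNA per cell cannot be told apart.

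**Figure D1:**
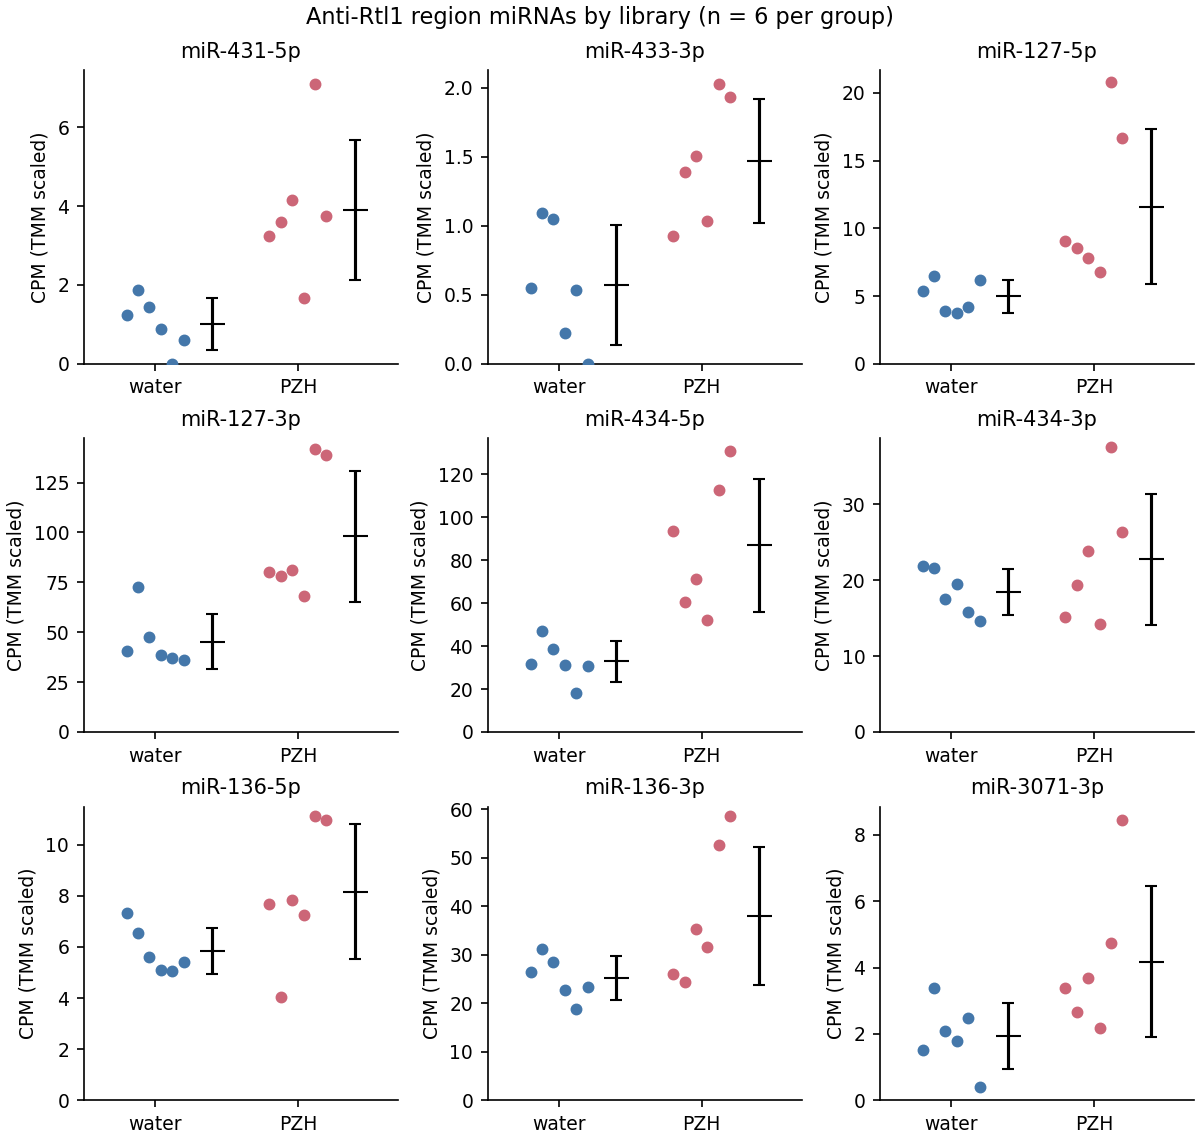
Level of each member in CPM after TMM scaling (vertical axes, each from 0) in the 6 water and 6 PZH libraries; points are libraries, ordered by replicate number from left to right, and bars are the mean and SD. Points of the groups are fully separate for miR-434-5p and miR-127-5p, and PZH replicates 5 and 6 stand high in most panels.

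The hairpin nearest to Dlk1 gave the largest estimate among the tested members. The level of miR-431-5p, a miRNA known to act on the muscle stem cell regulator Pax7, was low, with a lowest, median and highest value of 0, 1.06 and 1.88 CPM with water and 1.66, 3.67 and 7.09 CPM with PZH. In 5 of 6 PZH libraries it was above every water library, and PZH replicate 4 lay within the water range. It rose 3.68-fold (log2 fold change 1.88, SE 0.49, edgeR adjusted p = 0.0124). The call rests on 76 counts over the water group and 206 over the PZH group, 1 water library held none, and without PZH replicates 5 and 6 it ended (1.61, edgeR adjusted p = 0.0817).

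Next along the transcript, miR-433-3p, reported as a mediator of kidney fibrosis, was the scarcest member. It had a lowest, median and highest value of 0, 0.540 and 1.09 CPM with water and 0.924, 1.45 and 2.03 CPM with PZH. In 4 of 6 PZH libraries it was above every water library. It was left out of the test by the filter, with 45 counts over the water group and 78 over the PZH group. With no filter the log2 fold change was 1.29 and was not called (edgeR adjusted p = 0.176). At this depth that does not show that its level was unchanged.

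The miR-127 hairpin rose on both arms. Its 3p arm, which is known to repress the transcription factor Bcl6, was the most abundant member in both groups. The lowest, median and highest level of miR-127-3p was 36.0, 39.5 and 72.4 CPM with water and 68.1, 80.6 and 142 CPM with PZH. Water replicate 2 was the only water library to reach into the PZH range, and PZH replicate 4 was the only PZH library below it. The mean went from 45.3 ± 13.9 to 98.0 ± 33.0 CPM (SD, n = 6), a log2 fold change of 1.11 (SE 0.22, edgeR adjusted p = 0.00241). The estimate was 1.29 without water replicate 2 and 0.79 without PZH replicates 5 and 6, and the call held in both.

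The partner arm miR-127-5p went from a mean of 4.99 ± 1.20 to 11.6 ± 5.73 CPM (SD, n = 6), with a lowest, median and highest value of 3.76, 4.79 and 6.51 CPM with water and 6.75, 8.82 and 20.8 CPM with PZH. No PZH library overlapped the water group. The log2 fold change was 1.21 (SE 0.28, edgeR adjusted p = 0.00624), and it was 0.71 without PZH replicates 5 and 6 (edgeR adjusted p = 0.0408).

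The arms of the miR-434 hairpin differed. The lowest, median and highest level of miR-434-5p was 18.3, 31.3 and 47.2 CPM with water and 52.0, 82.4 and 131 CPM with PZH. The groups did not overlap. It rose 2.64-fold on an SE of 0.24 (log2 fold change 1.40, edgeR adjusted p = 0.000923). The means were 32.8 ± 9.60 and 86.8 ± 31.0 CPM (SD, n = 6). The level of miR-434-3p was 14.6, 18.5 and 21.9 CPM with water and 14.2, 21.6 and 37.5 CPM with PZH, again as lowest, median and highest. Here the groups overlapped, with 3 PZH libraries above every water library and PZH replicate 4 below all of them. Its log2 fold change was 0.29 (SE 0.21, edgeR adjusted p = 0.401), and without PZH replicates 5 and 6 it was -0.0076.

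The last hairpin of the antisense transcript, miR-136, gave smaller estimates on both arms. The lowest, median and highest level of miR-136-3p was 18.8, 24.9 and 31.2 CPM with water and 24.3, 33.5 and 58.5 CPM with PZH. The groups overlapped, with 4 PZH libraries above every water library. Its log2 fold change of 0.59 was not called (SE 0.21, edgeR adjusted p = 0.0595). This miRNA stood at the border of the threshold and was called under 8 of 21 alternatives, among them DESeq2 (log2 fold change 0.63, adjusted p = 0.0226). It was not called by limma-voom (0.52, adjusted p = 0.0957). Without PZH replicates 5 and 6 its log2 fold change was 0.25 (edgeR adjusted p = 0.352). The level of miR-136-5p was 5.06, 5.51 and 7.32 CPM with water and 4.05, 7.76 and 11.1 CPM with PZH. The lowest library of all 12 was PZH replicate 2, and the log2 fold change of 0.47 was not called (SE 0.22, edgeR adjusted p = 0.153).

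On the opposite strand, miR-3071-3p had a lowest, median and highest level of 0.399, 1.93 and 3.39 CPM with water and 2.18, 3.53 and 8.45 CPM with PZH. PZH replicate 6 was the highest and water replicate 6 the lowest. The log2 fold change of 1.03 was not called by edgeR (SE 0.38, edgeR adjusted p = 0.0719) and was called by DESeq2 (1.09, adjusted p = 0.0283). It was not called by limma-voom (0.93, adjusted p = 0.115), and was 0.58 without PZH replicates 5 and 6 (edgeR adjusted p = 0.382). The count of miR-3071-3p was 0.0741 to 0.516 of the count of miR-136-5p with water and 0.300 to 0.769 with PZH. The 2 were thus not in a fixed ratio across libraries. On the log2 scale the ratio had an SD between libraries of 0.87 with water and 0.47 with PZH. It differed between the groups by 0.69, which was not called (two-sided exact permutation p = 0.117, adjusted p = 0.175 over 9 ratios). Without water replicate 6, which held 2 counts of miR-3071-3p, the difference was 0.39.

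**Figure D2:**
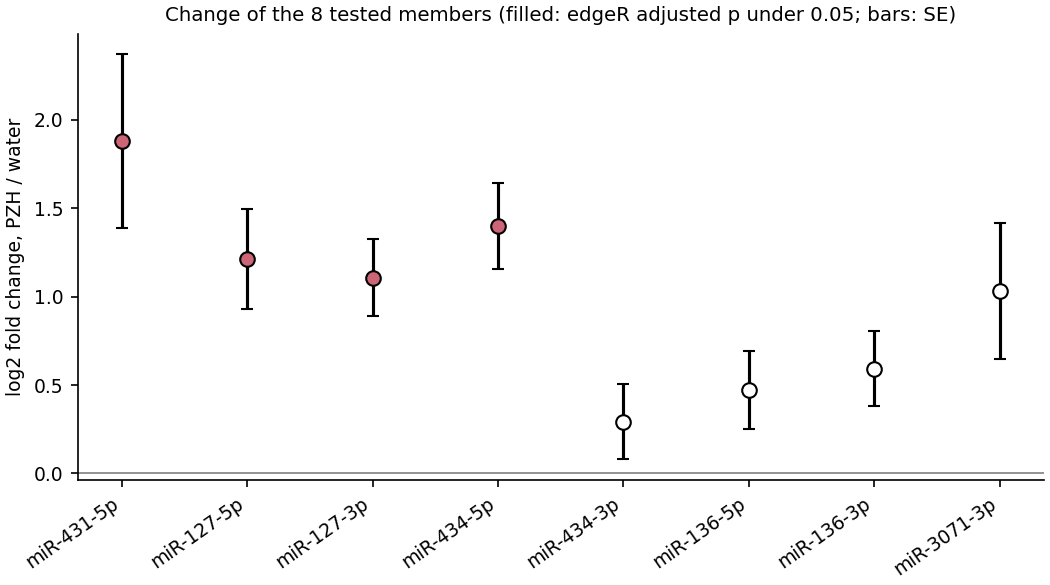
Log2 fold change of PZH against water (vertical axis) for the 8 tested members, ordered by hairpin along the antisense transcript; bars are SE and filled points passed an edgeR adjusted p under 0.05. The 4 called members lie between 1.11 and 1.88, while miR-434-3p and both arms of miR-136 lie between 0.29 and 0.59.

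Whether arms of 1 hairpin moved by unequal amounts was tested within each library, where scaling cancels. The log2 ratio of the 5p to the 3p count, with a pseudocount of 1, was compared with limma for all 137 hairpins whose arms both had a mean of at least 20 counts, and 5.84% of these were called with a higher ratio under PZH. The 5p to 3p ratio of miR-434 had a lowest, median and highest value of 1.16, 1.84 and 2.19 with water and 2.98, 3.38 and 6.14 with PZH. Every PZH library was above every water library, but the share of the 137 hairpins separated in this way was not counted. The ratio rose 2.21-fold (log2 difference 1.15, SE 0.22, limma adjusted p = 0.00595). It was called under all alternatives run, with limma adjusted p from 0.00425 to 0.0193.

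The other 2 hairpins gave no such difference. For miR-127 the 5p to 3p ratio had a median of 0.107 with water and 0.113 with PZH, and the log2 difference of 0.01 had a 95% interval from -0.37 to 0.39 (limma adjusted p = 0.964). For miR-136 the medians were 0.232 and 0.219, with a log2 difference of -0.12 and a 95% interval from -0.42 to 0.19 (limma adjusted p = 0.653). For both hairpins the interval lies below the estimate for miR-434, although the difference between hairpins was not itself tested. In these libraries the 3p arm was the more abundant arm of miR-127 and miR-136, and the 5p arm that of miR-434.

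**Figure D3:**
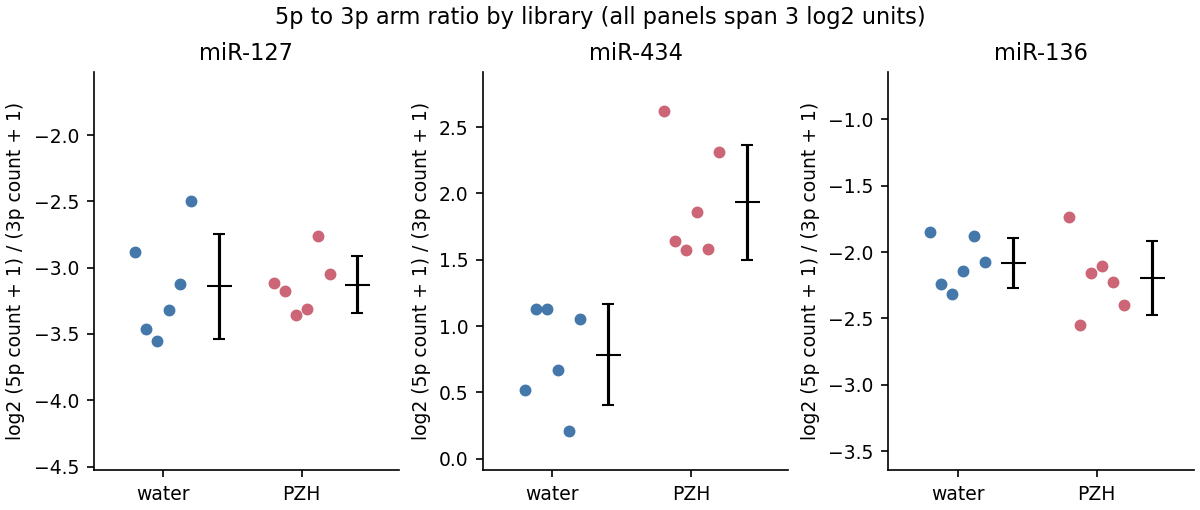
Log2 ratio of 5p to 3p counts (vertical axis, pseudocount of 1) of the hairpins with both arms among the members, in 6 water and 6 PZH libraries; points are libraries and bars are the mean and SD. The groups are separate for miR-434 and overlap for miR-127 and miR-136.

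Members were also set against miR-127-3p in the same library, with two-sided exact permutation tests over 924 assignments of libraries to groups and adjustment over 9 ratios, the ratio of miR-3071-3p to miR-136-5p included. Relative to miR-127-3p, 3 members were lower with PZH. Since miR-127-3p itself rose, this was the common case: of the 606 other tested miRNAs, 82.3% were lower relative to it at an exact permutation p under 0.05, with a median log2 difference of -1.13, against 3 of the 7 other tested members. The ratios therefore compare members with each other and show nothing particular to the 3. The ratio of miR-434-3p dropped by 0.86 on the log2 scale (exact permutation p = 0.00216, the smallest this test can give; adjusted p = 0.0195), from a mean log2 ratio of -1.26 ± 0.31 to -2.12 ± 0.26 (SD, n = 6). The ratio of miR-136-5p dropped by 0.68 (exact permutation p = 0.00866, adjusted p = 0.0260) and that of miR-136-3p by 0.56 (exact permutation p = 0.00649, adjusted p = 0.0260). The ratio shows that these 3 differed from miR-127-3p, and none of them passed its own edgeR test. The calls of both miR-136 arms ended without water replicate 6 (-0.63 for miR-136-5p and -0.52 for miR-136-3p; exact permutation, adjusted p = 0.0519 for each) and without PZH replicates 5 and 6 (-0.64 and -0.58; adjusted p = 0.0857 for each). That of miR-136-5p also ended without water replicate 4 (-0.68) or 5 (-0.67; adjusted p = 0.0519 for each). The estimates stayed close to the full ones, and the call of miR-434-3p held under all alternatives run.

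The remaining ratios to miR-127-3p were not called. The estimate was 1.11 for miR-431-5p (exact permutation p = 0.0260, adjusted p = 0.0584), 0.34 for miR-433-3p (0.366 and 0.470), 0.28 for miR-434-5p (0.0996 and 0.175), 0.02 for miR-3071-3p (0.978 and 0.978) and 0.01 for miR-127-5p (0.952 and 0.978), with the exact permutation p and its adjusted value in brackets. The estimate for miR-431-5p dropped to 0.52 without water replicate 5, the library with 0 counts of it, and was also 0.52 with a pseudocount of 5. It was called without water replicate 1 (1.27; exact permutation, adjusted p = 0.0438), water replicate 3 (1.28, 0.0390) or PZH replicate 4 (1.23, 0.0487). The makeup of the members' counts is given as description. The share held by miR-434-5p went from 23.9% ± 3.15 in water libraries to 31.5% ± 4.08 in PZH libraries (SD, n = 6). The share of miR-434-3p was 13.8% ± 2.16 and 8.31% ± 1.64, that of miR-136-3p 18.7% ± 1.33 and 13.9% ± 2.24, and that of miR-127-3p 33.0% ± 3.27 and 35.8% ± 1.86.

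Between libraries of the same group, the members went up and down together. After each group's mean log2 CPM was subtracted, the correlation between tested members over the 12 libraries was 0.60 to 0.83 for the 3 pairs of arms of 1 hairpin, with a median of 0.66 (0.21 to 0.84) for the 23 pairs of other hairpins. The lowest value for arms of 1 hairpin was that of miR-434. For miR-3071-3p the correlation was 0.44 with miR-136-5p and 0.53 with miR-136-3p, within the range of 0.21 (with miR-431-5p) to 0.72 (with miR-127-3p) for its other pairs. These values share libraries and scaling and are given as description.

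The 6 miRNAs whose variation between libraries was most like the mean of the tested members, among 338 with a mean of at least 10 CPM, were all from the Dlk1-Dio3 domain. They were miR-369-3p (correlation 0.93 over 12 libraries), miR-337-5p (0.91), miR-410-3p (0.90), miR-409-3p (0.90), miR-300-3p (0.87) and miR-379-5p (0.85). The median correlation was 0.79 over the 18 such miRNAs of the domain and 0.02 over the other 320.

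Outside the stretch antisense to Rtl1, the domain's list held 96 rows, of which 47 were tested. Of these, 35 rose by edgeR, against 9.88% called higher over all 607 tested miRNAs. None fell by edgeR, DESeq2 or limma-voom (0 at an unadjusted edgeR p under 0.05) and 12 were not called. The median log2 fold change was 1.18, against -0.03 over all 607. These contrasts are description only, because the list was chosen with earlier results of these data known. Rows scarce with water could also enter the test through the PZH group, and such rows were not counted. The 3 most abundant of the 47 were miR-541-5p (log2 fold change 1.60), miR-411-5p (0.90) and miR-409-5p (1.42), each called. The 9 members made up 13.2% ± 1.45 of the summed CPM of the domain's miRNAs with water and 12.1% ± 1.38 with PZH (SD, n = 6).

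**Figure D4:**
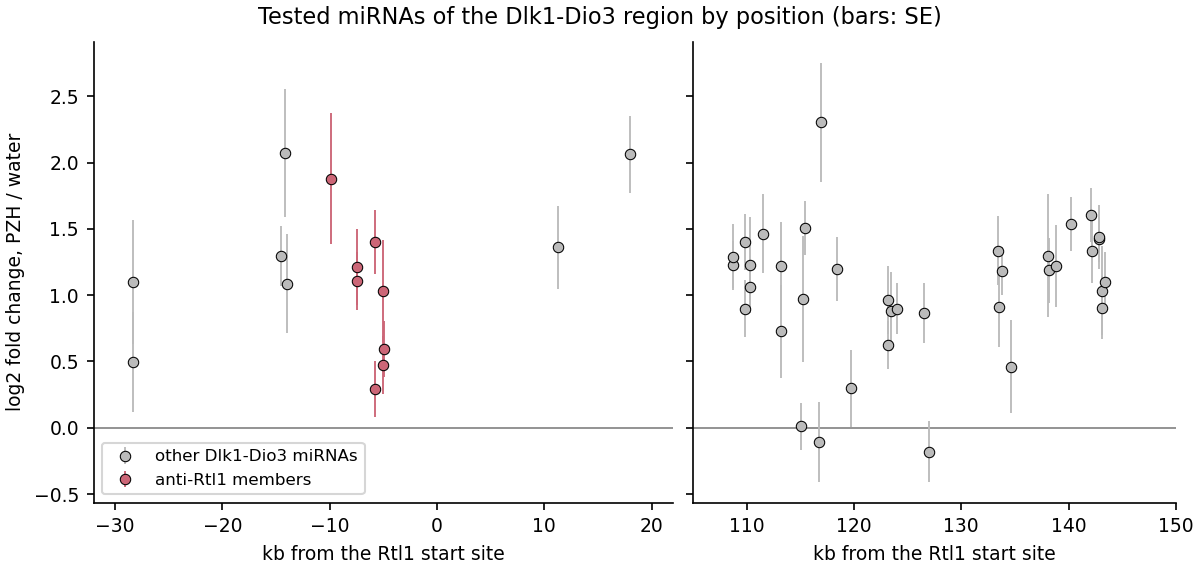
Log2 fold change of PZH against water (vertical axis, bars are SE) for 52 of the 55 tested Dlk1-Dio3 miRNAs with a single position in RefSeq, by distance in kb from the Rtl1 start site (negative towards Dlk1); the horizontal axis is split where no tested miRNA lies. Members antisense to or within Rtl1 span 0.29 to 1.88, against -0.18 to 2.30 for the other tested miRNAs of the domain.

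The other rows of the 7 hairpins were at or near the floor of detection. These were miR-431-3p, with 9 counts over the 6 water libraries and 24 over the 6 PZH libraries, miR-433-5p (13 and 8), miR-432 (11 and 13) and miR-3071-5p (28 and 19). None reached the filter level in any library, so none was tested and no statement is made on a difference. The 5p arm of miR-3071 lies across from miR-136-3p over 19 positions, yet it held 47 counts in all against 3749 for miR-136-3p.

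Markers of the cells a liver sample can hold were read beside these results. Among 5 tested markers of stellate cells and fibroblasts edgeR called none (1 higher at an unadjusted p under 0.05), and their summed level was 63446 to 92359 CPM with water and 52788 to 92619 with PZH. Both endothelial miRNAs were lower with PZH (12863 to 17096 CPM with water, 10272 to 13900 with PZH, summed). Of 5 miRNAs each, 1 hepatocyte (195079 to 225324 CPM with water, 176734 to 231582 with PZH), 1 leukocyte (4147 to 5972 and 3091 to 5513) and 2 biliary and epithelial miRNAs (931 to 2192 and 864 to 1246) were lower. The hepatocyte call was miR-802-5p (log2 fold change -0.65), and the other 4 were not called, miR-122-5p (0.05) among them. The leukocyte call was miR-223-3p (-0.58), and 3 leukocyte miRNAs were lower at an unadjusted edgeR p under 0.05. Of 3 pancreas miRNAs, only miR-375-3p was tested, and it was lower (9.44 ± 8.72 CPM with water, 2.42 ± 0.673 with PZH, mean and SD). The untested miR-217-5p (0.630 ± 0.300 and 1.41 ± 1.31) and miR-216a-5p (0.345 ± 0.108 and 0.405 ± 0.181) had higher means with PZH. Summed, the pancreas list stood at 3.37 to 27.9 CPM with water and 3.11 to 6.25 with PZH. Neural miRNAs, whose tissue is rich in the domain's miRNAs, gave no edgeR call among 3 tested of 5 (1 lower at an unadjusted p under 0.05; 44.0 to 49.8 CPM with water, 42.6 to 46.8 with PZH), and miR-124-3p stood at 0.497 ± 0.443 and 0.742 ± 0.520 CPM (SD, n = 6). Muscle miRNAs, with 2 tested of 3, gave no edgeR call (0 at an unadjusted p under 0.05; 13.7 to 89.2 CPM and 10.7 to 43.1). Erythroid miRNAs, with 2 of 3 in the table and both tested, gave none (1 lower at an unadjusted p under 0.05; 2945 to 4743 CPM and 2429 to 4582). Some of the lower calls ended with another tool: DESeq2 and limma-voom each called 1 of the 2 endothelial miRNAs, and limma-voom called 0 biliary and epithelial and 0 pancreas miRNAs, where DESeq2 called 2 and 1. DESeq2 and limma-voom also called 0 mesenchymal, neural, muscle and erythroid miRNAs, and no marker in the table was at 0 in all libraries. Whether the endothelial, hepatocyte, leukocyte, biliary and pancreas miRNAs called lower had a part in the members' results was not tested.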

How the data were processed

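The deposited table holds raw counts per mature miRNA, which the authors made from small RNA reads of 12 libraries. Per the submitters' processing notes, cutadapt, FastQC, BWA and DESeq2 were used with build GRCm38. Versions, the counting step, whether strand was used and how reads with several matches were handled are not stated in any source used here. The value 1 occurs in 0 cells of the table, so counts near 0 carry more doubt.

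Groups were taken from the sample titles. Counts were filtered (filterByExpr), scaled by TMM and tested by edgeR's quasi-likelihood method (version 4.0.16, R 4.3.3) over the whole table, with Benjamini-Hochberg adjustment. SEs were derived from the test statistic. Arm ratios were fitted with limma 3.58.1. Ratios between members used exact permutation. The edgeR fit and the arm ratio fit were tested on simulated data. The exact permutation tests, DESeq2 and limma-voom were not. SDs are spreads between libraries. The labels number the samples without saying outright that each is a separate animal. The p-values therefore set the difference between groups against the spread between these samples. Any 2 libraries of a group differed by more than counting noise (chi-square per degree of freedom of 29.1 or more in 30 pairs). The reads carry no molecular identifiers.

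Named miRNAs were the members, all other rows of their hairpins, the 6 most alike in variation and the 3 most abundant of the domain. The members and lists were chosen with earlier results of these data known. Positions and sequences come from RefSeq and GENCODE M21, both on GRCm38, and all 13 rows of the 7 hairpins matched. The alternatives tried were 3 other scalings (RLE, TMMwsp, total counts), no filter or a stricter 1 (10 CPM in at least 6 libraries), limma-voom, DESeq2 1.42.0, a replicate block, other pseudocounts, and fits without each library.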

Additional observations from a re-analysis of the deposited data

Results flagged for a closer look

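A single value was far from the rest of its group. In water replicate 2, miR-127-3p stood at 72.4 CPM, against 47.5 CPM in the next highest water library. The gap was 0.683 of the group's range. Among 24 such checks of 6 libraries each, chance alone would flag about 1 in 20. Water replicate 2 was also the library with the most counts, and it was the highest water library for 7 of the 9 members. Without it the log2 fold change of miR-127-3p was 1.29.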

How the results depend on the processing

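The count of members higher with PZH was 4 and lay between 3 and 6 over all alternatives (5 with RLE or total-count scaling and with no filter, 3 with the filter of 10 CPM, 6 with DESeq2). The filter of 10 CPM left only miR-127-3p, miR-434-3p, miR-434-5p and miR-136-3p to test. All but miR-434-3p were called, miR-136-3p with an edgeR adjusted p = 0.0308, so this count is of a different set. Both groups use replicate numbers 1 to 6 with no stated pairing, and same-numbered libraries correlated at -0.15 to 0.08 after centring, with 1 of 6 water libraries closest to the PZH library of its own number. With a replicate block 4 members, 114 of all miRNAs and 6 arm ratios were called, against 4, 129 and 11 without it. The number of arm ratios called was 4 with a mean of at least 5 counts on each arm and 3 to 14 with 1 library left out. With PZH replicates 5 and 6 both left out, which was chosen after seeing the data, it was 4, that of all miRNAs was 76 and that of ratios between members was 1 (3 in full; 1 to 4 with 1 library left out). The signs of differences near 0 were not stable. The log2 arm ratio difference of miR-127, which is also its ratio to miR-127-3p, was -0.036 with a pseudocount of 5, -0.0999 without PZH replicates 5 and 6, and -0.070 to 0.14 with 1 library left out. The ratio of miR-433-3p to miR-127-3p was -0.18 with a pseudocount of 5. That of miR-3071-3p was -0.19 with it, -0.057 without PZH replicates 5 and 6, and -0.25 to 0.17 with 1 library left out. Without PZH replicates 5 and 6 the log2 fold change of miR-434-3p was -0.0076. The cause of these shifts was not tested. Depth limits miR-431-5p and miR-433-3p most, with 76 and 45 counts over the water group.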
